A study of Mus musculus with 18 samples.

Results

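The genes that write, copy or remove methyl groups on cytosine in DNA were examined: *Dnmt1*, *Uhrf1*, *Dnmt3a*, *Dnmt3b*, *Dnmt3l*, *Tet1*, *Tet2* and *Tet3*. They are 8 of the 17274 protein-coding genes that had promoter windows and were chosen by name, for what their proteins do. At each gene the chromatin marks were read in windows wholly within 1 kb of the gene start (the promoter) and in windows from 1 kb past the start to the gene end (the body). The 5 histone marks H3K27me1, H3K27me2, H3K27me3, H3K36me2 and H3K36me3 had been mapped by chromatin immunoprecipitation and sequencing (ChIP-seq) in E14 mouse embryonic stem cells, a single established pluripotent line kept undifferentiated in 2i/LIF medium. The data comprise 18 libraries in 9 groups of 2. Untreated cells gave 10 libraries, 2 for each mark, with no spike-in. The other 8 libraries were quantitative: cells received for 7 days either EPZ-6438 (tazemetostat) at 10 µM, which blocks EZH2, the enzyme of PRC2 that methylates H3K27, or only the solvent DMSO, and Drosophila S2 chromatin at 0.05% was added before precipitation of H3K27me3 or H3K36me2. The labels do not say whether the 2 libraries of a group came from separate cultures. The p-values therefore measure the spread between these libraries, which limma pools in part or wholly over genes and which may be technical. No input library was used, and RNA and DNA methylation were not analysed here.

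In mammals, methylation of CpG dinucleotides is copied to the new strand after DNA replication by DNMT1, which UHRF1 brings to hemimethylated DNA. New methylation is placed by DNMT3A and DNMT3B, with DNMT3L as a cofactor that has no catalytic activity of its own, and the TET enzymes oxidise 5-methylcytosine on the way to its removal. These enzymes and the histone marks meet: the PWWP domains of DNMT3A and DNMT3B bind methylated H3K36, H3K36me3 is laid down over transcribed gene bodies, and H3K27me3, the product of PRC2, is found at silent or lowly expressed genes. Embryonic stem cells in 2i/LIF are known for low DNA methylation and for low amounts of the de novo enzymes.

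Window reads, which count a read once in every window it touches, numbered 22.9 to 67.5 M in each library of untreated cells (1 M is 1000000 window reads), from 21.6 to 27.9 M for H3K27me3 after DMSO, from 0.992 to 1.78 M for H3K27me3 after the inhibitor, and from 50.5 to 112 M for quantitative H3K36me2. Levels in untreated cells are given relative to the library's mean over all windows, so that 1 is the genome average and genes of different length can be compared. As a check of the cell type, 9 of 10 pluripotency markers could be matched, and the 8 with body windows had a median H3K36me3 level of 7.03 times the genome mean (range 4.71 to 8.24), against 2.06 over all genes. Of these markers *Esrrb* and *Utf1* had promoter H3K27me3, at 6.91 and 2.92, and the other 7 had at most 0.336. Marker promoters were read at a single start per gene, and levels at other annotated starts were not examined. Lists for primed or formative cells, primitive endoderm, trophoblast, fibroblast feeders and neural cells had H3K36me3 medians of 0.478 to 2.41 over bodies and H3K27me3 medians of 4.49 to 14.6 at promoters. They rest on 2 to 4 matched genes each, and the neural marker *Tubb3* had body H3K36me3 of 5.44, within the pluripotency range. The fibroblast marker *Col3a1* had promoter H3K27me3 of 0.368, close to the highest of those 7 pluripotency markers.

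The promoters differed widely in sequence. All 8 genes matched the RefSeq promoter table (GRCm38.p6), which gives 300 bases around each of 15 starts. The sequences upstream of 6 starts are shown, 4 from promoters with H3K27me3 above the genome mean and 2 from promoters with almost none, so that the CpG content can be read beside the mark. Each reads 5′ to 3′ along the gene, ends at the last base before the start (or before an earlier start), and has its CpG dinucleotides in capitals.
Dnmt1, chr9:20959889-20960138, minus strand: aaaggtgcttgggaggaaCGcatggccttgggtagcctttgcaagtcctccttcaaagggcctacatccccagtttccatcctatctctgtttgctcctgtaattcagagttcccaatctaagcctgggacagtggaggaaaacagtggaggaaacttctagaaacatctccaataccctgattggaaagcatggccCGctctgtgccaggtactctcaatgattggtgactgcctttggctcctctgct
Dnmt3a, chr12:3806730-3806979, plus strand: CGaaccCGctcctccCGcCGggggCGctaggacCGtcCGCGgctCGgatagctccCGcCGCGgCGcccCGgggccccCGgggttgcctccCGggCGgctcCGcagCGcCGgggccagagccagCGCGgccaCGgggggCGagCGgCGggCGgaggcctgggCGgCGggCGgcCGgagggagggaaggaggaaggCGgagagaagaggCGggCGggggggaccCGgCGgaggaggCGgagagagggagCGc
Dnmt3b, chr2:153649199-153649410, plus strand: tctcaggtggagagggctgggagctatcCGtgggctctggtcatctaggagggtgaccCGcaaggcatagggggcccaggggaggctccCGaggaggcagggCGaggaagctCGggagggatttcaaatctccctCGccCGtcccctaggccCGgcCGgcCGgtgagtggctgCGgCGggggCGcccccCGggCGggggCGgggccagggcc
Dnmt3l, chr10:78042037-78042286, plus strand: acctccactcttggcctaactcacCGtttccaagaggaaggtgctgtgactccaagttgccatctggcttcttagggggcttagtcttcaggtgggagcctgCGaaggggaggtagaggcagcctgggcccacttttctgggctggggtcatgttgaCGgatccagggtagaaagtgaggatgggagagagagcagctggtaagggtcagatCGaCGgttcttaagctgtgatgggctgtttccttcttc
Tet1, chr10:62887470-62887574, minus strand: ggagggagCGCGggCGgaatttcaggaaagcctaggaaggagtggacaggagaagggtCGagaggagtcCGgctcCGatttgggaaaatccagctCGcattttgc
Uhrf1, chr17:56303087-56303336, plus strand: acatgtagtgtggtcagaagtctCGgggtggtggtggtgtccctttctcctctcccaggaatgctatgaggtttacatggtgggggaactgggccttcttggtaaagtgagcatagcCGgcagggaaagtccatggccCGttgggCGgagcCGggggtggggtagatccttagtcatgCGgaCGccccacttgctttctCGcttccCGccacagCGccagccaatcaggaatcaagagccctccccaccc

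The 250 bases of *Dnmt3a* hold 38 CpG, the 212 of *Dnmt3b* hold 16, the 250 of *Uhrf1* hold 10, the 105 of *Tet1* hold 7, the 250 of *Dnmt3l* hold 5 and the 250 of *Dnmt1* hold 2. Over the full 300 bases, the median of 21045 starts of protein-coding genes was 13 CpG. *Tet2* at its start 0.746 kb into the gene had 57, more than 99.8% of all starts, and *Dnmt1* at its first start had 2, more than 11.1% of them. The most CpG-rich promoter of the set, *Tet2*, was nearly free of H3K27me3, while *Dnmt3l* and the first *Dnmt1* start, both poor in CpG, carried 6.25 and 3.75 times the genome mean. The other starts gave no such order: the *Dnmt3a* start at 5.42 kb (46 CpG) and the *Dnmt3b* start (30 CpG) had H3K27me3 of 2.34 and 3.63, and the first *Uhrf1* start (12 CpG) had 0.121. Among 5 short motifs searched on both strands, of which none contains another, GGGCGG was in 12 of the 15 starts (46.7% of all starts), CCAAT in 5 (38.5%), CACGTG in 2 (7.91%), TTTCGCGC in 2 (0.456%) and TTTGGCGC in 1 (0.641%). The 15 starts belong to 8 genes and are not independent, and the sequences of the *Dnmt3a* starts at 5.42 and 5.60 kb overlap. The 2 starts with TTTCGCGC, the letters of a binding site of the E2F cell cycle factors, were the *Dnmt1* start at 7.27 kb and the *Uhrf1* start at 0.976 kb into the gene.

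**Figure D1:**
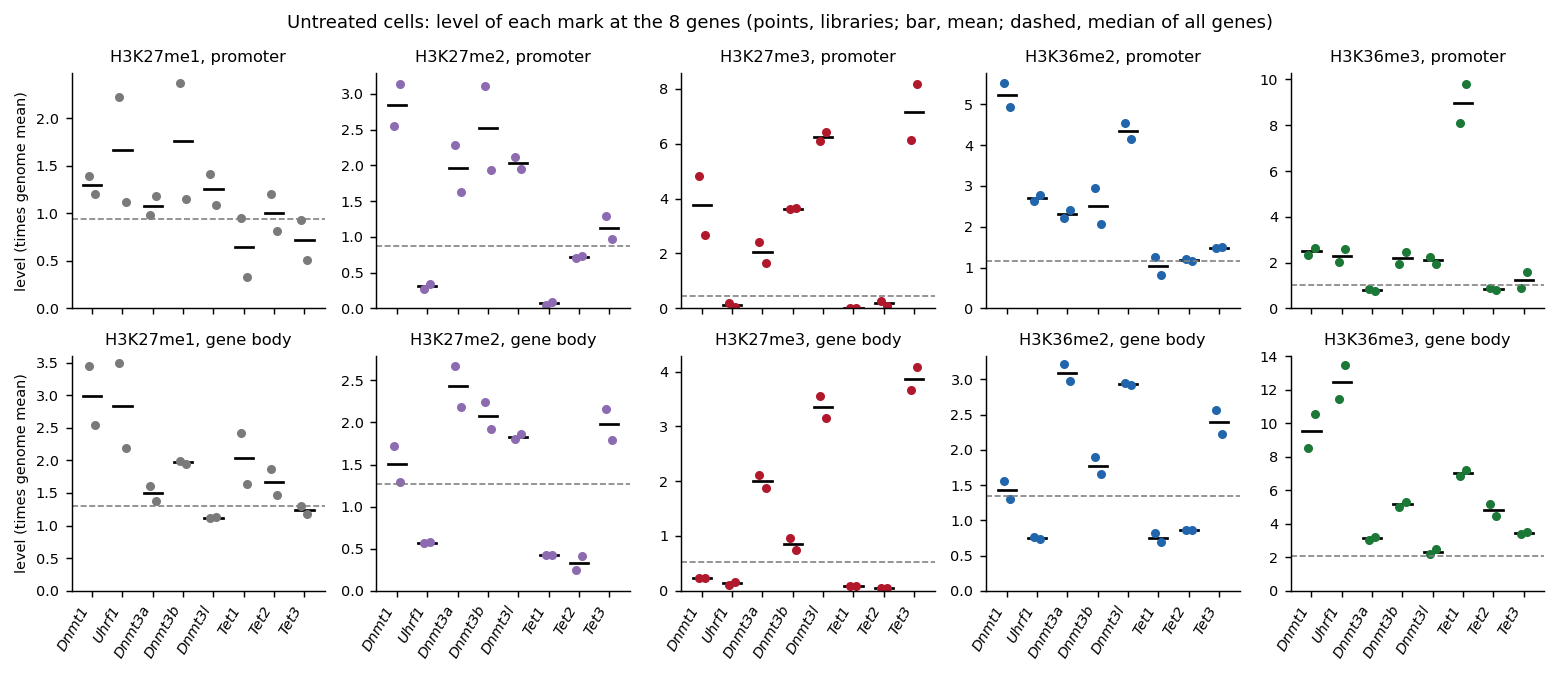
Level of each of 5 marks in untreated cells at the promoter (upper row) and over the body (lower row) of the 8 genes, in times the genome mean of the library; points are the 2 libraries, the bar is their mean and the dashed line is the median of all protein-coding genes. *Tet3* and *Dnmt3l* have the highest H3K27me3 in both rows, and *Uhrf1* has the highest H3K36me3 over its body (12.5).

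The maintenance genes *Dnmt1* and *Uhrf1* had the highest H3K36me3 of the set over their bodies. *Uhrf1* (gene ID 18140, chr17:56303337-56323486, plus strand), whose protein recognises hemimethylated CpG, had 11.4 and 13.5 times the genome mean in the 2 libraries (12.5 ± 1.45, SD, n = 2), above 99.4% of 15571 genes. *Dnmt1* (gene ID 13433, chr9:20907206-20959888, minus strand) had 8.52 and 10.6 (9.55 ± 1.46, SD, n = 2), above 96.1% of genes, and its 2 libraries did not overlap those of *Uhrf1* or of *Tet1*, the next gene in the order. H3K27me1 was also highest over these bodies, 2.99 ± 0.640 at *Dnmt1* and 2.84 ± 0.919 at *Uhrf1* (SD, n = 2), and the libraries of the 2 genes overlapped. Those of *Uhrf1* also reached those of *Tet1*, while both *Dnmt1* libraries lay above them. H3K27me3 over the bodies was 0.228 ± 0.00152 at *Dnmt1* and 0.133 ± 0.0421 at *Uhrf1* (SD, n = 2), below the median of 0.532 over all genes.

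At the first annotated start the 2 maintenance genes differed. The *Dnmt1* promoter had H3K27me3 at 4.82 and 2.67 times the genome mean (3.75 ± 1.52, SD, n = 2), and the *Uhrf1* promoter had 0.196 and 0.0469. For H3K36me2 the *Dnmt1* promoter was the highest of the set, with 5.52 and 4.93 (5.23 ± 0.421, SD, n = 2), above 99.7% of 17274 genes, and *Uhrf1* had 2.71 ± 0.109 (SD, n = 2). The *Dnmt1* value belonged to its upstream start alone. The other *Dnmt1* starts in the promoter table lie 6.91 and 7.27 kb further into the gene, share their windows and had H3K27me3 of 0 and 0.0937 (0 and 2 window reads), against 123 and 57 window reads at the upstream start. As background, *Dnmt1* is known to have separate oocyte and somatic promoters. H3K36me2 was also lower at those starts, at 1.57 ± 0.431 (SD, n = 2). A deposited H3K27me3 peak of 4.5 kb spans from 1.61 kb upstream to 2.89 kb downstream of the first start and so leaves out the other starts, whereas an H3K36me2 peak of 62.5 kb ends 18.4 kb into the gene and covers all 3 starts. At *Uhrf1* an H3K36me2 peak of 46 kb likewise comes from upstream and ends 2.16 kb into the gene.

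Among the de novo genes, *Dnmt3l* carried the most H3K27me3 and *Dnmt3b* the most H3K36me3. *Dnmt3l* (gene ID 54427, chr10:78042287-78063622, plus strand) had promoter H3K27me3 of 6.08 and 6.42 (6.25 ± 0.242, SD, n = 2), above 89.8% of genes, and 3.35 ± 0.281 over its body. Its other starts, 7.56 and 13.0 kb into the gene, had 4.26 ± 0.535 and 3.51 ± 0.410 (SD, n = 2). H3K36me2 was high over the same stretch, at 4.34 ± 0.267 at the promoter and 2.93 ± 0.0234 over the body (SD, n = 2), and H3K36me3 over the body was the lowest of the 8, at 2.34 ± 0.183. The gene thus lay wholly inside a deposited H3K27me3 peak of 69 kb and an H3K36me2 peak of 80 kb. *Aire*, a neighbouring protein-coding gene, overlaps *Dnmt3l* and lies within 1 kb of its start, and reads in these windows cannot be assigned to either gene.

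*Dnmt3a* (gene ID 13435, chr12:3801559-3914443, plus strand) had intermediate H3K27me3 along its 113 kb. Its promoter had 2.43 and 1.64 (2.04 ± 0.559, SD, n = 2) and its body 2.11 and 1.88 (2.00 ± 0.161, SD, n = 2). H3K36me2 over the body, 3.21 and 2.97 (3.09 ± 0.168, SD, n = 2), was the highest of the set and above 91.8% of genes. The CpG-rich start 5.42 kb into the gene, shown above, broke this pattern: H3K36me2 was 0.547 and 0.551 there, while H3K27me3 was 2.24 and 2.44. The H3K36me2 peaks leave the same gap, one ending at 4.44 kb and the next starting at 6.44 kb. At the internal start at 90.2 kb, in the stretch from which the short isoform DNMT3A2 of embryonic stem cells is known to arise, H3K27me3 was 1.40 ± 0.187 and H3K36me2 2.56 ± 1.24 (SD, n = 2). In untreated cells the highest H3K36me3 of the gene (7.90) and its highest H3K27me3 (5.28) lay in windows centred 95.9 and 93.9 kb from the gene start. The DMSO libraries differed in this. Their highest H3K27me3, 7.38 times the genome mean (6.84 and 7.93), lay 4.94 kb from the gene start, near the CpG-rich start. That start had 2.34 in untreated cells and 6.45 after DMSO. The long noncoding genes *Dnmt3aos* and *Gm31623* overlap *Dnmt3a*.

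*Dnmt3b* (gene ID 13436, chr2:153649411-153687730, plus strand) had H3K27me3 at the start and H3K36me3 behind it. Promoter H3K27me3 was 3.61 and 3.66 (3.63 ± 0.0336, SD, n = 2) and body H3K27me3 0.964 and 0.738 (0.851 ± 0.160, SD, n = 2). Body H3K36me3 was 5.02 and 5.28 (5.15 ± 0.182, SD, n = 2), above 79.2% of genes. The H3K27me3 peak of 11 kb ends 2.09 kb past the start and covers 5.45% of the gene, close to the 5.48% covered at *Dnmt1*. An H3K36me2 peak of 140.5 kb reaches in from 119 kb upstream and ends 21.6 kb into the gene.

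**Figure D2:**
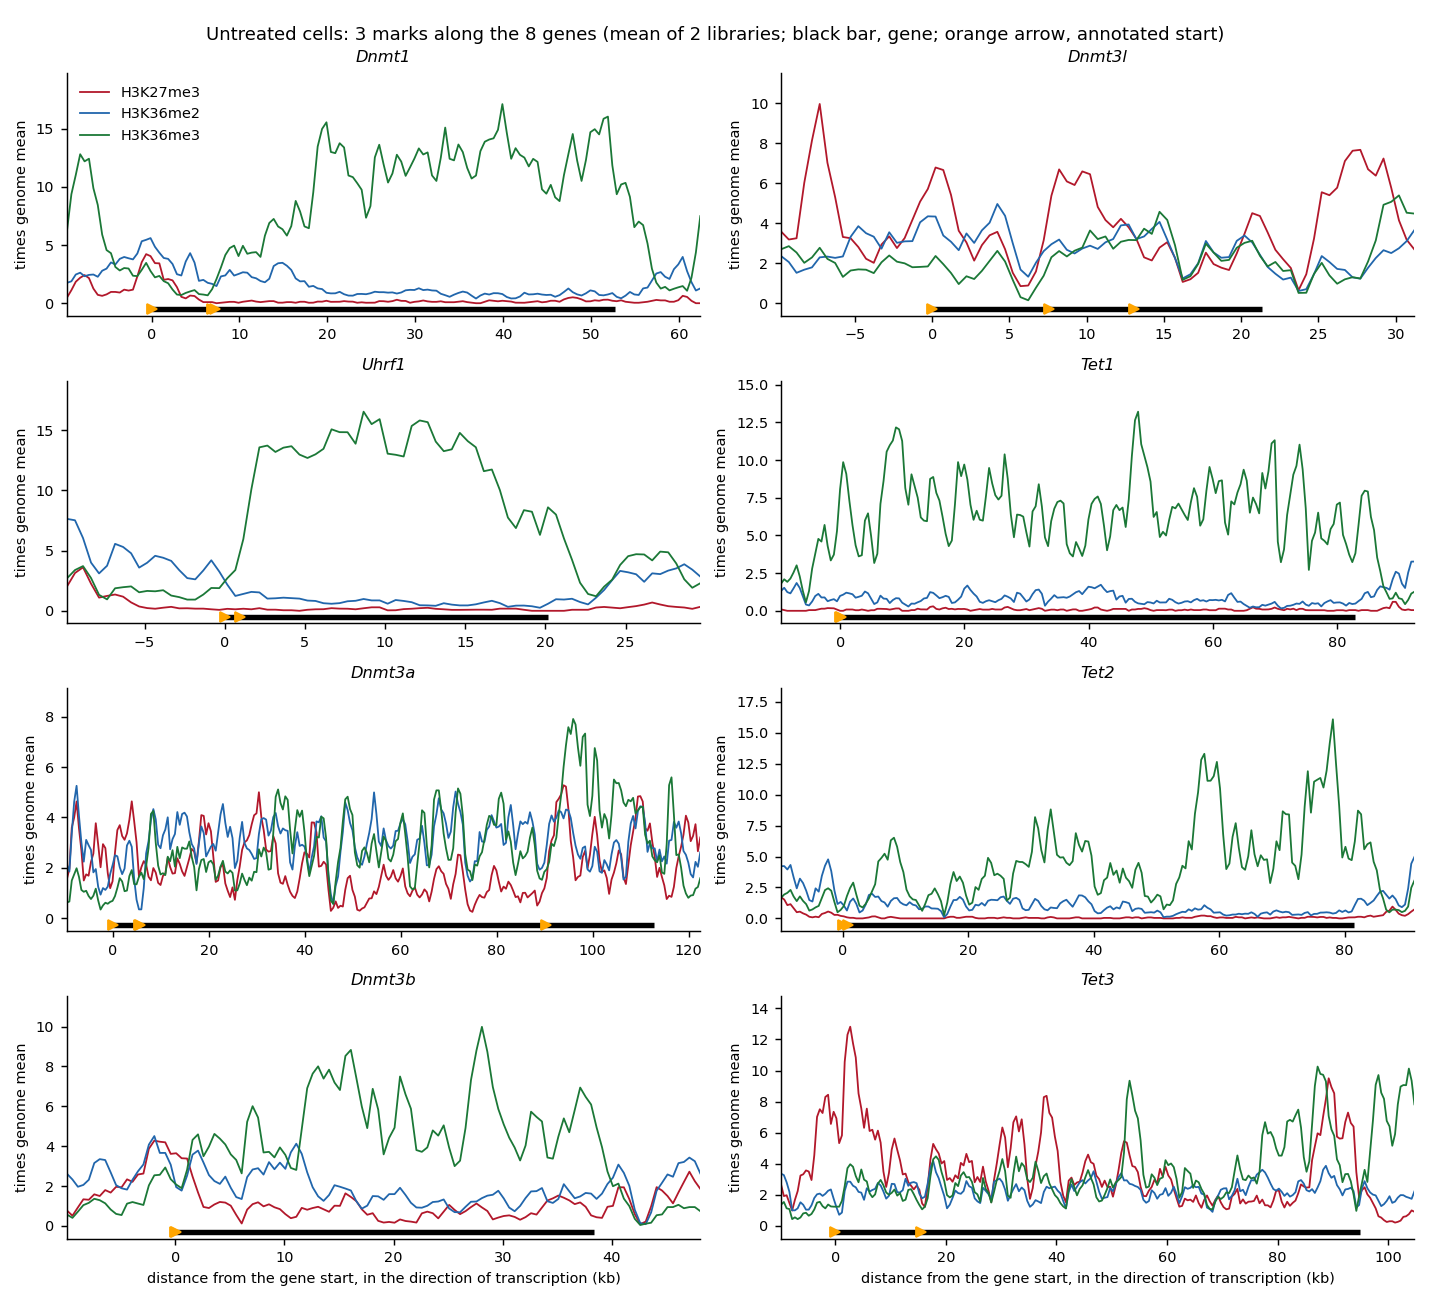
H3K27me3, H3K36me2 and H3K36me3 in untreated cells along the 8 genes and 10 kb on each side, as the mean of 2 libraries in 1 kb windows (vertical axis, times the genome mean; horizontal axis, kb from the gene start in the direction of transcription; black bar, the gene; orange arrows, annotated starts). H3K27me3 is highest around the start at *Dnmt1* and *Dnmt3b*, runs along *Dnmt3a*, *Dnmt3l* and *Tet3*, and does not exceed 0.297 in any window of the genes *Uhrf1*, *Tet1* and *Tet2*.

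The 3 TET genes did not share a pattern. *Tet3* (gene ID 194388, chr6:83362373-83457208, minus strand) had the highest H3K27me3 of the set, 6.12 and 8.15 at the promoter (7.14 ± 1.44, SD, n = 2) and 3.65 and 4.09 over the body (3.87 ± 0.307, SD, n = 2), above 91.9% and 89.2% of genes. At the promoter the libraries of *Tet3* and *Dnmt3l* overlapped, and over the body they did not. The highest window, 2.71 kb past the start, reached 12.8 (13.2 and 12.5). The start of *Tet3* in the promoter table, 15.5 kb into the gene, had 1.89 ± 0.509 (SD, n = 2). One deposited H3K27me3 peak of 108 kb, ranked 529 of 43094 by the authors' score, covers the whole gene, as does an H3K36me2 peak of 113.5 kb. Body H3K36me2 was 2.40 ± 0.240 and body H3K36me3 3.45 ± 0.0473 (SD, n = 2).

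*Tet1* (gene ID 52463, chr10:62804570-62887469, minus strand) had the opposite profile. Its promoter had 0 H3K27me3 window reads in both untreated libraries, where 3 window reads would correspond to 0.118 and 0.141 times the genome mean, a limit that covers counting error only. H3K36me3 at the promoter was 8.11 and 9.82 (8.97 ± 1.20, SD, n = 2), above 99.7% of 17274 genes and above every library of the other 7 promoters. At their first starts the next was *Dnmt1* at 2.49, and among starts further into a gene *Uhrf1* at 0.976 kb had 4.67 and *Dnmt3l* at 13.0 kb had 3.16. The long noncoding gene *Gm51805* overlaps *Tet1* and lies within 1 kb of its start. Every window of *Tet1* had more than 2 times the genome mean of H3K36me3, in both libraries it stayed above that level up to 4.53 kb upstream of the start (3.11 kb at *Dnmt1*, 1.91 kb at *Dnmt3b* and 0 at the other 5 genes), and the body mean was 6.88 and 7.23 (7.05 ± 0.248, SD, n = 2). *Tet1* was the one gene of the 8 with no H3K36me2 peak at its promoter.

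*Tet2* (gene ID 214133, chr3:133463677-133545136, minus strand) also had next to no H3K27me3, 0.275 and 0.0937 at the promoter and 0.0569 and 0.0457 over the body, the lowest body of the set and above 7.67% of genes. H3K36me3 was 0.842 ± 0.0538 (SD, n = 2) at the start in the gene table, which is not a start in the promoter table, below the median of 1.00 over all promoters. At its promoter-table start, 0.746 kb into the gene, it was 2.13 ± 0.317 (1.91 and 2.35), above 88.8% of genes. Both starts lay below the *Tet1* promoter in each library. Over the body H3K36me3 was 5.21 and 4.44 (4.82 ± 0.545, SD, n = 2), and its libraries overlapped those of *Dnmt3b*. An H3K36me2 peak of 22.5 kb comes from upstream and ends 1.64 kb past the start.

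Deposited peaks, called on untreated cells and counted where they cover at least 500 bp of the 2 kb around the start, were compared with all genes. H3K27me3 peaks were at 5 of the 8 promoters (*Dnmt1*, *Dnmt3a*, *Dnmt3b*, *Dnmt3l* and *Tet3*), against 32.6% of all genes, and H3K36me2 peaks at 7, against 53.8%. H3K27me2 peaks were at 4 promoters (34.5% of all genes), those of *Dnmt1*, *Dnmt3a*, *Dnmt3b* and *Dnmt3l*. H3K27me1 peaks were at 3 (29.8%), those of *Dnmt1*, *Tet2* and *Uhrf1*. These counts rest on the gene-table starts. The *Dnmt1* starts further into the gene had 0 bp in H3K27me3 or H3K27me2 peaks, and the *Tet3* start at 15.5 kb had 2001 bp in an H3K27me2 peak. In H3K27me1 peaks the other starts of *Dnmt1*, *Tet2* and *Uhrf1* had 123 to 479 bp, and the *Dnmt3a* start at 5.42 kb had 2001 bp. That *Dnmt3a* start had 21 bp in H3K36me2 peaks. H3K27me1 peaks covered 92.8% of *Tet1*, 91.5% of *Dnmt1*, 89.3% of *Dnmt3b*, 86.8% of *Uhrf1*, 71.7% of *Dnmt3a*, 57.6% of *Tet2*, 30.5% of *Dnmt3l* and 25.3% of *Tet3*. H3K27me3 peaks covered *Dnmt3l* and *Tet3* whole and 64.6% of *Dnmt3a*, and *Tet1*, *Tet2* and *Uhrf1* had none.

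H3K27me3 fell with the inhibitor at every listed gene that passed the filter on low reads. Values here are scaled reads per 1 kb window on the spike-in scale, in which a read was worth 5.943 and 3.37 in the DMSO libraries and 0.242 and 0.099 in the inhibitor libraries, and the genome mean fell 534-fold. At promoters 7 of the 7 genes that passed the filter of 10 window reads fell, where 98.4% of 14131 genes were called lower. Over bodies 8 of 8 fell, where 99.9% of 14840 genes were called lower (limma on log2(scaled reads + 1), Benjamini-Hochberg adjusted p under 0.05). That filter rests on the DMSO libraries, and the shares called show that the fall was general, so nothing is particular to these genes in it. The median log2 difference was -7.10 over the 7 promoters and -5.28 over all genes, and -4.41 over the 8 bodies and -4.71 over all genes. These medians depend on the pseudocount of 1, which exceeds most inhibitor values. With a pseudocount of 0.1 the promoter medians were -8.70 and -7.72, with one of 10 they were -4.14 and -2.40, and with limma-voom on the recovered reads -8.79 and -8.42. Over bodies they were -6.66 and -7.18, -1.73 and -1.93, and -7.55 and -8.39 in the same order.

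*Tet3* had the most H3K27me3 of the 8 promoters at the gene-table starts in both arms. Its promoter had 535 and 460.0 scaled reads in the DMSO libraries. The inhibitor libraries had 1.21 and 0.990 there, from 10 and 20 window reads. Both inhibitor libraries lay below both DMSO libraries, with a log2 difference of -7.89 ± 0.294 (SE) and limma's adjusted p of 8.81e-06. The *Dnmt3l* promoter went from 464 and 283 to 0.363 and 0.446 (log2 difference -8.02 ± 0.357, SE, limma's adjusted p 8.81e-06). The *Dnmt1* promoter, at its upstream start, went from 193 and 150.0 to 0.363 and 0.148 (log2 difference -7.10). That of *Dnmt3b* went from 202 and 152 to 0.242 and 0.0990 (log2 difference -7.24). The *Dnmt3a* promoter at the gene-table start had less, 83.2 and 69.1, and ended at 0.363 and 0.0990 (log2 difference -5.97). Its CpG-rich start 5.42 kb into the gene, the first in the promoter table, had more than the *Dnmt1* and *Dnmt3b* promoters, and went from 297 and 243 scaled reads to 0.605 and 0.446, from 5 and 9 window reads (log2 difference -7.47). The promoter-table start of *Tet3* gave -6.58. At the *Dnmt1* starts further into the gene, which share their windows, the DMSO libraries held only 3 and 2 window reads and the inhibitor libraries 3 and 3.

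The promoters with little H3K27me3 in the DMSO libraries rested on few reads, and the pseudocount of 1 shrinks their log2 differences most. *Uhrf1* went from 20.8 and 3.37 scaled reads, resting on 7 and 2 window reads, to 0.121 and 0.0495, resting on 1 read each. The ratio of the means was 142, while the log2 difference of -3.17 ± 0.760 (SE) had an adjusted p of 0.00763 in limma. That difference was -2.01 without the first DMSO library and -4.33 without the second. The call was lost with a pseudocount of 10 (adjusted p 0.0939) or with no filter (adjusted p 0.0534). *Tet2* held 2 and 8 window reads in the DMSO libraries against 2 and 1 in the inhibitor libraries (ratio of the means 66.6, log2 difference -3.13 ± 0.435, SE). With 1 library left out, its log2 difference ranged from -3.66 to -2.60, and its ratio also rests on these few reads. *Tet1*, where the DMSO libraries held 6 and 0 window reads and the inhibitor libraries 0 and 3, did not pass the filter. In the 2 alternatives that tested it, limma did not call it: with no filter the log2 difference was -2.02 (adjusted p 0.358), and with windows chosen by midpoint -2.28 (adjusted p 0.0535).

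**Figure D3:**
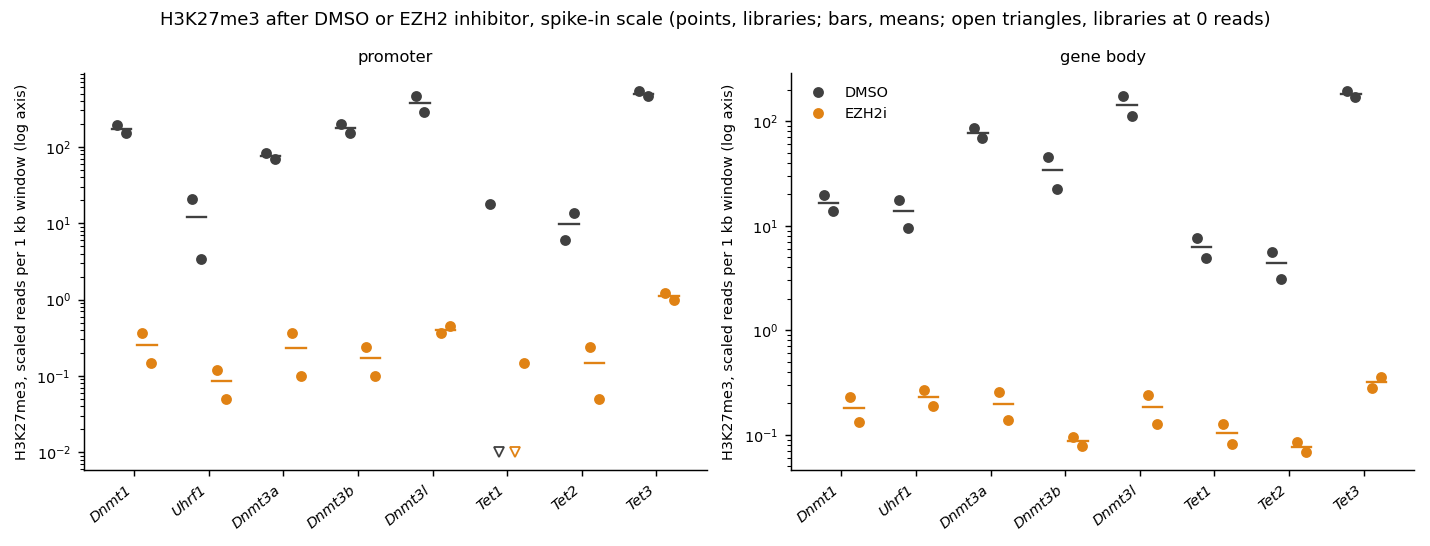
H3K27me3 at the promoters and bodies of the 8 genes after DMSO (grey) or the EZH2 inhibitor (orange) on the spike-in scale, in scaled reads per 1 kb window on a log axis; points are libraries, bars are means and open triangles, drawn at an arbitrary low height, mark libraries with 0 reads. In every body the 2 inhibitor libraries lie below the 2 DMSO libraries, and at the *Tet1* promoter they overlap.

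Over the bodies, where reads are more numerous, the genes with the most H3K27me3 after DMSO had the largest ratios. The DMSO mean is part of the ratio, and the inhibitor means varied less (0.0764 to 0.319 scaled reads) than the DMSO means (4.38 to 182). The order of the ratios thus largely restates that of the DMSO levels, and the part of background reads was not tested. The ratio of DMSO to inhibitor means was 775 at *Dnmt3l*, 571 at *Tet3*, 394 at *Dnmt3a* and 389 at *Dnmt3b*, and 93.0 at *Dnmt1*, 60.8 at *Tet1*, 60.2 at *Uhrf1* and 57.4 at *Tet2*. *Tet3* went from 194 and 171 scaled reads to 0.281 and 0.358. *Uhrf1* went from 17.8 and 9.58 to 0.267 and 0.188, and so ended near *Dnmt3l*, which went from 174 and 112 to 0.242 and 0.127. The 8 bodies spanned a 43.2-fold range of mean level, relative to the genome, after DMSO and a 4.33-fold range after the inhibitor. The second inhibitor library held 31 window reads in a single *Tet3* window 37.7 kb past the start where the first held 4, out of 340 and 109 in the body.

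Scaled to equal library totals, which sets aside the global fall, the remaining H3K27me3 reads were spread differently. Over bodies 4 genes were called higher, *Dnmt1*, *Uhrf1*, *Tet1* and *Tet2*, and none of the other 4 was called in either direction, where 36.4% of all genes were called higher and 7.18% lower. At promoters 0 of 7 were called on this scale (limma, 0 at an unadjusted p under 0.05), where 3.83% were called higher and 8.19% lower. The *Uhrf1* body went from 0.366 and 0.268 times the library mean to 2.93 and 2.81 (log2 difference 3.10 ± 0.238, SE, limma's adjusted p 0.00917). *Tet2* went from 0.116 and 0.0873 to 0.929 and 1.02 (3.0 ± 0.223), *Tet1* from 0.158 and 0.138 to 1.38 and 1.23 (2.95 ± 0.200), and *Dnmt1* from 0.402 and 0.388 to 2.50 and 1.97 (2.42 ± 0.221). Without regard to the test, the inhibitor libraries lay above the DMSO libraries in 6 of 8 bodies (51.5% of all genes), below in *Dnmt3l* (27.6%), and overlapped in *Tet3*. At promoters they lay above in 3 (31.3% of all genes), below in 2 (30.4%) and overlapped in 3. The *Tet3* promoter kept its rank, with 11 and 12.9 times the library mean in the DMSO libraries, against 13.3 and 14.8 in the inhibitor libraries. One read of the shallow inhibitor libraries was worth 112 and 62.5 scaled reads on this scale, and the part of depth and of background reads in these values was not tested.

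**Figure D4:**
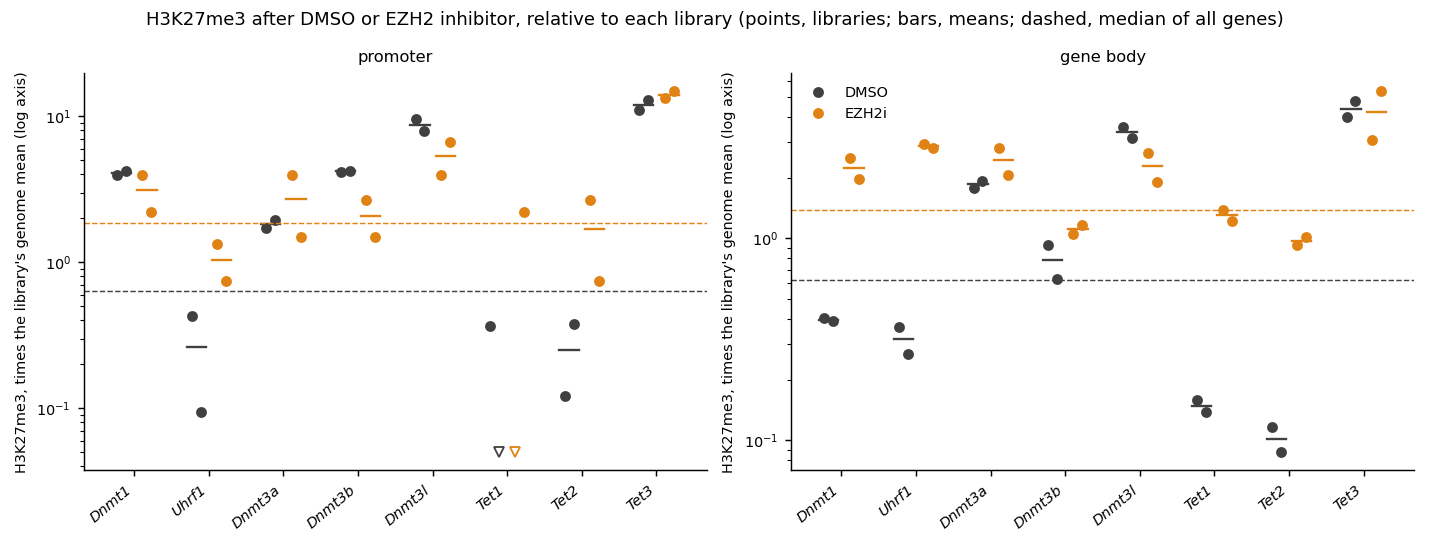
The same H3K27me3 libraries relative to each library's own genome mean (log axis), with the median of all genes as dashed lines; points are libraries, bars are means, grey is DMSO and orange is the inhibitor, and open triangles at an arbitrary low height mark libraries with 0 reads. Over the bodies *Dnmt1*, *Uhrf1*, *Tet1* and *Tet2* sit below 0.5 after DMSO and above 0.9 after the inhibitor, *Tet3* is above 3 in every library, and *Dnmt3l* lies lower after the inhibitor (2.66 and 1.91) than after DMSO (3.57 and 3.15).

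No change of H3K36me2 with the inhibitor was detected at any of the 8 genes. At promoters 0 of 8 were called, where 0.677% of 16686 genes were called (106 higher and 7 lower), and over bodies 0 of 8, where 0.0979% of 15317 genes were called (14 higher and 1 lower). None of the 8 reached an unadjusted p under 0.05 in limma in either region (449 promoters, 2.69%, and 264 bodies, 1.72%, of all genes did), and limma-voom on the recovered reads called 0 of 8 as well. The median log2 difference was 0.0022 over the 8 promoters and 0.054 over the 8 bodies, against 0.032 and 0.071 over all genes. The DMSO and inhibitor libraries overlapped at every gene in both regions except the *Tet1* promoter. Over all genes, the inhibitor libraries lay above the DMSO libraries at 8.28% of promoters and 6.99% of bodies, and below them at 3.75% and 1.07%.

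That promoter went from 293 and 250.1 scaled reads to 319 and 367 with the inhibitor, a log2 difference of 0.34 with a 95% interval of -0.86 to 1.53. Both inhibitor libraries were above both DMSO libraries there on the spike-in scale. Relative to the library mean they overlapped, with 0.906 and 1.17 after DMSO and 0.789 and 1.62 after the inhibitor. The *Dnmt1* promoter, the richest in H3K36me2, went from 1576 and 1100.4 to 1499.9 and 809 (log2 difference -0.26, interval -1.45 to 0.94). The lowest log2 difference at a promoter was that of *Dnmt3b*, which went from 970 and 622 to 648 and 594 (-0.33, interval -1.52 to 0.87). Over the *Dnmt3a* body, the richest of the set, the DMSO libraries had 922 and 631 and the inhibitor libraries 1019.9 and 612 (0.050, interval -0.90 to 1.01). The intervals of all 16 tests reach at least 0.83 in each direction, so differences of this size are not excluded. For this mark limma gave every listed gene the same SE, 0.61 at promoters and 0.49 over bodies. That SE pools the spread over genes, so these intervals and p-values do not measure the spread between the libraries at a single gene.

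The 2 libraries of an arm differed as a whole, with genome means of 323 and 213 scaled reads in the DMSO arm against 404 and 227 in the inhibitor arm. Relative to the library mean, the inhibitor libraries lay below the DMSO libraries at 4 promoters, those of *Dnmt1*, *Dnmt3a*, *Dnmt3b* and *Tet3*, where 35.6% of all promoters did so. They also lay below them over 4 bodies, those of *Dnmt3a*, *Dnmt3b*, *Dnmt3l* and *Tet3* (36.7% of all bodies). None of these passed the test on library totals, in which 0 of the 8 genes was called in either region (limma), where 0.042% of all promoters were called, all of them higher, and 0 bodies.

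**Figure D5:**
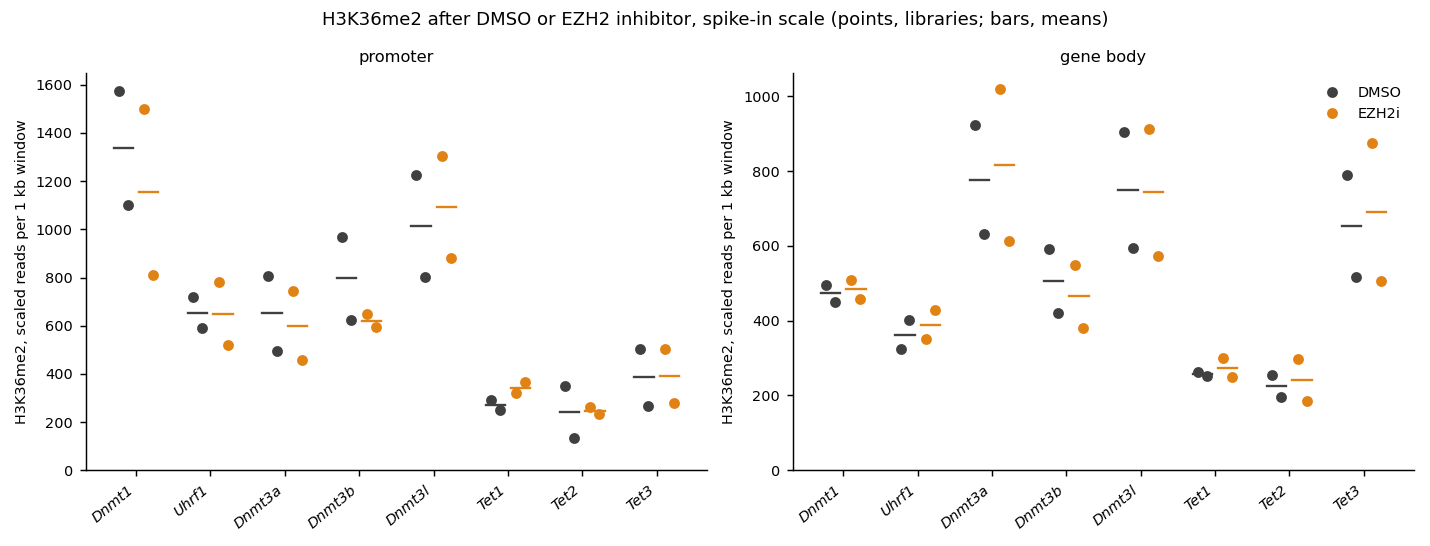
H3K36me2 at the promoters and bodies of the 8 genes after DMSO (grey) or the EZH2 inhibitor (orange), in scaled reads per 1 kb window on the spike-in scale (linear axis from 0); points are libraries and bars are means. The 2 arms overlap at every gene except the *Tet1* promoter, where 319 and 367 after the inhibitor lie above 293 and 250.1 after DMSO.

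Other genes of DNA methylation biology were examined in 3 lists. Their promoter levels are those at the gene-table start, and levels at other starts were not examined. Of 9 readers of methylated CpG, 6 could be matched. The highest promoter H3K27me3 was at *Uhrf2*, a relative of *Uhrf1*, with 1.46 ± 0.123 times the genome mean (SD, n = 2), followed by the methyl-CpG binding zinc finger genes *Zbtb4* (0.928) and *Zbtb38* (0.924), and the lowest at *Mbd4*, a glycosylase, with 0.0469. Of 12 genes of base repair and demethylation 10 were matched, with the highest promoter H3K27me3 at *Gadd45g*, a stress-response gene, with 5.80 ± 0.608, the uracil glycosylase gene *Smug1* with 3.06 ± 0.716 and *Gadd45b* with 0.743 ± 0.607 (SD, n = 2). *Apex1*, the AP endonuclease gene of the same list, had 0. Of 20 cofactors, partners and regulators 16 were matched. *Cxxc4*, which encodes a CXXC-domain partner of TET2, had 5.17 ± 0.558, *Lin28a*, an RNA-binding protein gene, 2.27 ± 0.892 and the isocitrate dehydrogenase gene *Idh2* 1.89 ± 0.177 (SD, n = 2), while *Zfp57*, *Ahcy*, *Pcna* and *Ogt* had 0.

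After the inhibitor H3K27me3 fell at every promoter of these lists that could be tested, 5 of 5 readers, 9 of 9 repair genes and 10 of 10 cofactors (98.4% of all genes), and over 5 of 5, 7 of 7 and 13 of 13 bodies (99.9% of all genes). Here too the filter rests on the DMSO libraries, and promoters with few reads, such as those of *Apex1* and *Pcna*, were not tested. A fall at those that passed was thus nearly given in advance and is not particular to these lists. The fall on the log2 scale was -7.87 at the promoter of *Gadd45g*, -8.08 at *Cxxc4* and -2.25 at *Mbd4*. For H3K36me2, limma called 0 of 6, 0 of 10 and 0 of 16 promoters and 0 of 6, 0 of 9 and 0 of 16 bodies (0.677% of all promoters and 0.0979% of all bodies were called). The list medians of the H3K36me2 log2 difference were between -0.087 and -0.012 at promoters (0.032 over all genes) and between 0.054 and 0.15 over bodies (0.071 over all genes).

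Likeness in untreated cells was measured as the Euclidean distance between log2 relative levels (pseudocount 0.1) of 10 values per gene, 5 marks at the promoter and over the body. Within the set, *Dnmt3l* and *Tet3* were nearest (2.08), *Dnmt1* and *Dnmt3b* next (2.24), and *Dnmt3l* and *Tet1* farthest apart (9.26). With promoters taken at the gene-table starts, *Uhrf1* was nearer to *Tet2* (2.80) and *Tet1* (3.31) than to *Dnmt1* (5.37). All *Dnmt1* distances, also that to *Dnmt3b*, hold for its upstream start only. That start had H3K27me3 of 3.75, while the *Dnmt1* starts further into the gene had 0.0469. The *Tet3* distances likewise hold for its gene-table start, with H3K27me3 of 7.14, while its promoter-table start had 1.89. At *Dnmt3a* H3K36me2 was 2.30 at the gene-table start and 0.549 at the start at 5.42 kb. Distances from these other starts were not computed. The order of the pairs, also which pair is nearest, and the nearest genes may differ there. Over all genes the nearest were *Fblim1* and *Deaf1* to *Dnmt1*, *Cenpa* and *Nop2* to *Uhrf1*, *Maff* and *Pik3c2b* to *Dnmt3a*, *Tef* and *Txnrd1* to *Dnmt3b*, *Slc26a10* and *Asb10* to *Dnmt3l*, *Kat6b* and *Stx5a* to *Tet1*, *Lsm14a* and *Snu13* to *Tet2*, and *B3gnt4* and *Icosl* to *Tet3*. The nearest distance was 0.505 for *Tet3* and 1.43 for *Tet1*.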

How the data were processed

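The 18 tracks were deposited as log2 values in 1 kb windows every 500 bp (5451088 windows), made by the authors. Per the submitters' processing notes, Trim Galore 0.4.2, Bowtie2 2.2.6.2, SICER and the builds mm10 and dm3 were used; the role of each is not given in the sources used here. From the values, 2 to the power of each value, minus 1, was a whole read number times 1 factor per library in 100% of windows (tolerance 0.02). In the quantitative tracks that factor was taken to be the spike-in scale, and its derivation is not given. The 4 peak lists carry the authors' score per peak, used for rank only.

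Gene starts and ends came from the RefSeq gene table and strands from the promoter table (both GRCm38.p6). Region values were means of linear scaled reads over windows, compared as log2(mean + 1) by lmFit and eBayes of limma 3.58.1 in R 4.3.3, with no covariate, where at least 10 window reads were held over the 4 libraries, with Benjamini-Hochberg adjustment over all protein-coding genes tested. Such differences understate the change of low genes. The fit was tested on simulated data with known, large changes. For H3K36me2 the simulated libraries had equal totals, unlike the real ones, so that test does not show how well changes of this mark would be found here. Python 3.11.15, numpy 2.4.6 and pandas 2.3.3 were used elsewhere.

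The text names all 8 genes, the 3 highest and the lowest of each pathway list by untreated H3K27me3 at the promoter, and the 2 nearest genes of each member. Members and lists were chosen with earlier results of these data known. Alternatives were other scalings, pseudocounts, filters, gene types, windows, limma with a trend, limma-voom, a replicate block and leaving out each library. In 6904 genes the start in the gene table is not a start in the promoter table, so the first promoter-table start was added as an alternative after seeing the data. No sample or column was left unmapped.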

Additional observations from a re-analysis of the deposited data

How the results depend on the processing

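For H3K36me2 the calls at the 8 genes depended on no alternative, with 0 of 8 called under each alternative run. For H3K27me3 they depended on the scale, and at promoters also on the pseudocount and the filter. With a pseudocount of 10, 6 of 7 promoters were called, and with no filter 6 of 8, and *Uhrf1* was not called in either. Scaled to library totals, 0 of 7 promoters were called, and 4 of 8 bodies, all 4 higher. The log2 difference then turned positive at the promoters of *Dnmt3a* (0.41), *Tet2* (2.56), *Tet3* (0.24) and *Uhrf1* (2.14) and over the bodies of *Dnmt1* (2.42), *Dnmt3a* (0.38), *Dnmt3b* (0.52), *Tet1* (2.95), *Tet2* (3.0) and *Uhrf1* (3.10). Median centring, which sets the median of all genes near 0, did so at the promoters of *Tet2* (2.12) and *Uhrf1* (2.08) and over the bodies of *Dnmt1* (0.84), *Tet1* (2.03), *Tet2* (2.45) and *Uhrf1* (1.21). These 2 promoters and 4 bodies were then called higher and 5 promoters and 3 bodies lower. Over all genes 4542 promoters were called higher and 5591 lower, and 6155 bodies higher and 6395 lower. The pseudocount of 1 exceeds most inhibitor values, so the centred differences largely restate the DMSO levels. These calls are thus no separate support for a gain relative to other genes. Over all genes the library totals gave 1698 called promoters (541 higher and 1157 lower, median -0.49) and 6475 called bodies (5409 higher and 1066 lower, median 0.47). A filter of 40 window reads left 7394 called promoters, and all gene types gave 22344 promoters and 23267 bodies, because fewer or more genes were tested. With 1 library left out, 7 of 7 promoters and 8 of 8 bodies were called lower, but such a fit has 1 library in an arm, assumed to vary like the 2 of the other arm, and is little evidence of stability.

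For H3K36me2 the count over all promoters, 113, became 7 with library totals, 4 with median centring, 2 with a pseudocount of 10, 15 with a filter of 40 window reads, and 0 with no filter, with a trend or with limma-voom (223, 154 and 221 at an unadjusted p under 0.05). It ranged from 30 to 147 when 1 library was left out, the lowest without the second DMSO library. The count over all bodies, 15, became 25 with a pseudocount of 0.1, 2 with the filter of 40 and 51 over whole genes. It became 0 with library totals, median centring, a pseudocount of 10, no filter, a trend, limma-voom or the median over body windows (2102, 1417, 186, 84, 77, 239 and 133 at an unadjusted p under 0.05). It ranged from 4 to 52 when 1 library was left out, the lowest without the second DMSO library and the highest without the second inhibitor library. With the replicate number as a block, 10 promoters and 1678 bodies were called, 0 of them among the 8 genes; the labels do not say that a number marks a shared culture, and differences between libraries 1 and 2 correlated across genes between arms with r = 0.12 at promoters and 0.60 over bodies (0.012 and 0.11 for H3K27me3).

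No H3K36me2 difference at the 8 genes passed a test, and its sign often turned. With library totals it was negative at the promoters of *Dnmt3l* (-0.092), *Tet2* (-0.011) and *Tet3* (-0.17) and over the bodies of *Dnmt1* (-0.17), *Dnmt3a* (-0.15), *Tet1* (-0.11), *Tet2* (-0.13), *Tet3* (-0.15) and *Uhrf1* (-0.10). With median centring it was so over *Dnmt1* (-0.056), *Dnmt3a* (-0.036), *Tet2* (-0.016) and *Tet3* (-0.028). The *Tet2* promoter had -0.051 with windows chosen by midpoint and -0.087 at the first start in the promoter table, and the *Dnmt3l* body 0.058 by the median window. When 1 library was left out, the promoter differences ranged from -0.70 to 0.19 for *Dnmt1*, -0.47 to 0.24 for *Dnmt3a*, -0.20 to 0.42 for *Dnmt3l*, -0.50 to 0.88 for *Tet2*, -0.42 to 0.50 for *Tet3* and -0.33 to 0.26 for *Uhrf1*. The body differences ranged from -0.046 to 0.11 for *Dnmt1*, -0.32 to 0.42 for *Dnmt3a*, -0.39 to 0.13 for *Dnmt3b*, -0.36 to 0.32 for *Dnmt3l*, -0.039 to 0.22 for *Tet1*, -0.27 to 0.41 for *Tet2*, -0.33 to 0.45 for *Tet3* and -0.050 to 0.26 for *Uhrf1*. Apart from the changes of genes tested, the cause of these changes was not tested. The number of promoters in peaks was within 1.5 times at 1 bp and 1 kb of overlap for all 4 marks. Depth limits H3K27me3 after the inhibitor, where most promoters rest on 1 to 10 window reads.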
